A study of Homo sapiens with 6 samples.

Results

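Polycomb proteins are a conserved group of chromatin repressors, and the expression of 10 genes of that group and of the ASXL family was read here in cells labelled HL-60, a human acute myeloid leukaemia line. The genes were taken by symbol from the count tables: EZH1, EZH2, EED, SUZ12 and JARID2, which encode parts of Polycomb repressive complex 2 (PRC2), BMI1, RING1 and RNF2, which encode parts of Polycomb repressive complex 1 (PRC1), and ASXL1 and ASXL2, which encode cofactors of the deubiquitinase BAP1. All 10 were found among 43424 symbols. The series cultured wild-type cells for 6 months with DMSO, a solvent, or with CIP, a preparation of Corydalis incisa (Thunb.) Pers. raised from 2 to 20 µg/ml, and calls the latter cells resistant. There were 3 CIP-labelled and 3 DMSO-labelled libraries, made by a method that reads the 3' ends of polyadenylated transcripts (QuantSeq), with 8143657 to 10868396 counts each. No label says whether the replicates came from different cultures, so every p-value rests on a spread between libraries that may be technical.

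PRC2 places methyl groups on lysine 27 of histone H3 through its catalytic subunit, EZH2 or EZH1, held by EED and SUZ12. PRC1 places ubiquitin on histone H2A through the ligases RING1 and RNF2, paired with a PCGF protein such as BMI1, and the ASXL proteins help BAP1 to remove that ubiquitin. In blood cells these complexes keep HOX genes and the CDKN2A locus silent, and their genes, ASXL1 and EZH2 above all, are recurrent sites of mutation in myeloid neoplasms.

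The labels were first read against genes that mark HL-60. MPO, the myeloperoxidase of promyelocytes, had 9 to 15 counts in a DMSO-labelled library and 77887 to 84917 in a CIP-labelled one, and MYC, which HL-60 is known to carry in extra copies, stood at 41.8 ± 3.91 CPM against 280.1 ± 52.3 CPM (CPM, counts scaled to a common library total by TMM, mean ± SD, n = 3). Granule genes of the same lineage differed in direction: ELANE stood at 592.1 ± 48.7 CPM with the DMSO label against 332.8 ± 32.9 CPM, AZU1 at 44.1 ± 5.85 against 25.2 ± 4.86 CPM, and PRTN3 at 286.9 ± 18.8 against 425.8 ± 70.5 CPM. MPO and MYC thus went against the DMSO label as plain HL-60 while the other 3 markers were present under both labels, so the groups are named by their labels, and a gene that rose or fell is one called higher or lower in the CIP-labelled libraries. Of these 5 marker genes MPO, MYC and PRTN3 rose and ELANE and AZU1 fell. Of 15 markers of epithelial, stromal, endothelial, lymphoid and red cells, 8 were too low to test, 2 fell, CDH5, MS4A1 and HBA2 had 0 counts in every library, and the summed level was 59.3 to 132.7 CPM with the CIP label and 174.7 to 275.7 CPM with the DMSO label. Their part in the results below was not tested.

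Promoter sequences are shown for 4 of the 10 genes, those with a match to either of a pair of motifs named for factors known to act on Polycomb genes. The motifs were the E2F site, searched as TTTGGCGC, TTTCCCGC, TTTCGCGC and TTTGCCGC, and the E-box CACGTG, which MYC binds, on both strands of the RefSeq windows from 250 bases before to 50 after a start (GRCh38.p14). They were chosen with these promoters in view. An E2F site is in 3.31% and an E-box in 7.26% of all 35116 windows, and each of these 4 windows held 1 match. Capitals mark the match. The first 3 windows hold the 250 bases before the start, and the EZH2 stretch holds 15 bases on each side of it, because its match lies at bases 2 to 9 after the start. They lie at chr17:42745041-42745290 (EZH1, minus strand), chr17:31936757-31937006 (SUZ12, plus strand), chr10:22320849-22321098 (BMI1, plus strand) and chr7:148884277-148884306 (EZH2, minus strand).
EZH1: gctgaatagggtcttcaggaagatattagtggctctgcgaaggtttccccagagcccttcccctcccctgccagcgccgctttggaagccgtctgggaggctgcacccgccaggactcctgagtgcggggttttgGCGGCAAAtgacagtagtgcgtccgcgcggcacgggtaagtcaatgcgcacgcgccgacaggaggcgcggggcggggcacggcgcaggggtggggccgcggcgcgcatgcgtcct
SUZ12: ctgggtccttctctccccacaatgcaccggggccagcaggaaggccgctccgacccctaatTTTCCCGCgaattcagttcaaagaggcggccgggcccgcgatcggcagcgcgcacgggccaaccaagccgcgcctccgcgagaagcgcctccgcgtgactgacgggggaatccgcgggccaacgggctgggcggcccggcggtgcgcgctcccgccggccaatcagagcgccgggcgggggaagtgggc
BMI1: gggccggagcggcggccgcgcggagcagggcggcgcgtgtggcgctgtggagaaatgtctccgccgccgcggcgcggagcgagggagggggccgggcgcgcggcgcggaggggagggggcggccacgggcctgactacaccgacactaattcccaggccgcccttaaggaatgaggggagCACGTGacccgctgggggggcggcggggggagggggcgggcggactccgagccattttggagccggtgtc
EZH2: cgattgggctgccgcgTTTGGCGCtcggtc
Where a gene has several windows the most upstream was read, and no such match was found there for the other 6 genes. All 10 genes matched a window, and the 250 bases before the start held a median of 34 CpG dinucleotides (range 11, in EED, to 38, in EZH2), against 11 over all windows.

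Most of the 10 genes differed between the groups, by small amounts. With edgeR's quasi-likelihood test, 5 rose, 3 fell and 2 did not pass at an adjusted p of 0.05. Of all 12844 genes tested, 73.1% were called, 34.9% higher and 38.2% lower, so a count of 8 in 10 is near the background. The libraries of the groups did not overlap for 8 of the 10, against 75.5% of all tested genes. The size of the log2 fold change was under the median of all tested genes, 0.76, for 9 of the 10, and BMI1 was the exception. A call of at least 2-fold was made for BMI1 alone, against 39.04% of all tested genes. The median log2 fold change of the 10 was 0.12, beside -0.03 for all tested genes. When only library totals scaled the counts, the log2 fold changes of EED, RING1 and SUZ12 shrank to 0.42, 0.39 and 0.38 and that of ASXL1 grew to -0.46, each by over 1.5 times, and all 4 were still called.

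**Figure D1:**
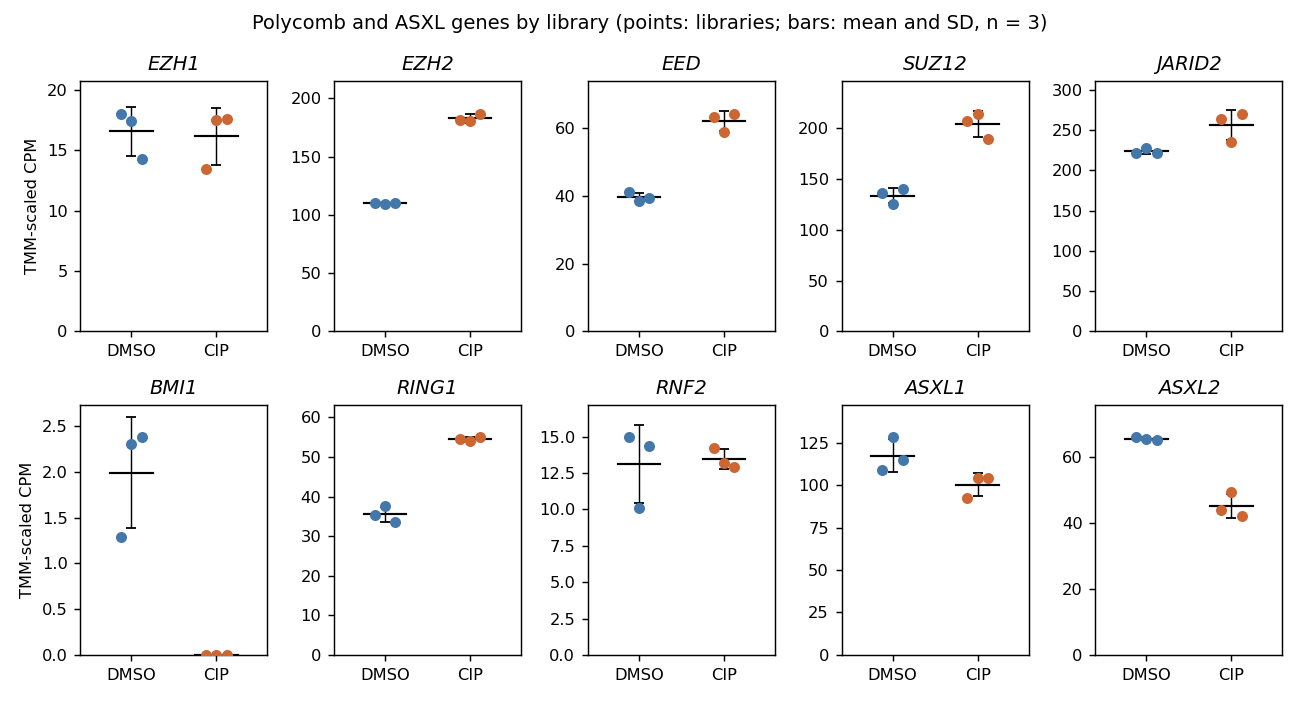
TMM-scaled CPM of the 10 Polycomb and ASXL genes in each library, by label, on axes that start at 0; points are libraries, and bars are the mean and SD of 3. EZH2, EED, SUZ12 and RING1 lie higher in all 3 CIP-labelled libraries, ASXL2 lies lower, EZH1 and RNF2 overlap, and BMI1 is at 0 in each CIP-labelled library.

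The 3 core subunits of PRC2 that are not shared with other complexes rose together. EZH2 (chromosome 7, 148807383 to 148884291, GRCh38), the main methyltransferase of dividing cells, stood at 181.3, 180.2 and 186.9 CPM in CIP-labelled replicates 1 to 3 and at 109.9, 109.5 and 109.8 CPM in the DMSO-labelled ones. The groups did not overlap. The spread of 0.219 CPM (SD, n = 3) with the DMSO label is smaller than counting error alone at 971 to 1142 counts. It is therefore no measure of how far apart the groups lay. The log2 fold change was 0.74 ± 0.07 (standard error, with edgeR adjusted p = 1.45e-11). EED (chromosome 11, 86244753 to 86287615), which reads the methyl mark and stimulates the enzyme, stood at 63.4, 58.9 and 64.3 CPM against 41.1, 38.6 and 39.4 CPM. Its log2 fold change was 0.65 ± 0.10 (standard error, with edgeR adjusted p = 4.21e-07), with no overlap. SUZ12 (chromosome 17, 31937007 to 32001038), the scaffold of the complex, stood at 207.7, 214.5 and 189.7 CPM against 136.3, 125.04 and 140.01 CPM, and its log2 fold change was 0.61 ± 0.07 (standard error, with edgeR adjusted p = 2.62e-09).

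SUZ12 carries a limit. The transcribed pseudogene SUZ12P1 on the same chromosome resembles it, and no source used here says how reads with several matches were counted. SUZ12P1 rose from 21.4 ± 4.13 to 75.9 ± 6.32 CPM (n = 3), a log2 fold change of 1.84 ± 0.12 (standard error, with edgeR adjusted p = 8.32e-16). With the counts of both rows summed, the log2 fold change was 0.85 (edgeR adjusted p = 3.10e-13). The sum covers SUZ12 reads placed in the pseudogene's row, and does not cover pseudogene reads counted as SUZ12, so the part of SUZ12P1 in the rise of SUZ12 was not tested.

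JARID2 and EZH1 complete the PRC2 genes of the list. JARID2 (chromosome 6, 15246069 to 15522042), which helps PRC2 to find its targets, had the highest level of the 10. It stood at 263.99, 235.2 and 270.5 CPM with the CIP label and at 221.6, 228.04 and 222.1 CPM with the DMSO label. The gap from CIP replicate 2 to the highest DMSO-labelled library was small, and the log2 fold change of 0.20 ± 0.07 (standard error, with edgeR adjusted p = 0.00949) became -0.03 (adjusted p = 0.65) when only library totals scaled the counts, so its direction depends on the scaling. EZH1 (chromosome 17, 42700275 to 42745040), the paralog of EZH2 that prevails in resting cells, stood at 13.4, 17.5 and 17.5 CPM against 18.03, 17.5 and 14.2 CPM. The groups overlapped, and its log2 fold change of -0.04 had a 95% interval of -0.37 to 0.30 (edgeR adjusted p = 0.86).

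The balance between the paralogs was then read within each library, where it does not depend on the scaling of libraries. There were 13.5, 10.3 and 10.6 EZH2 counts for each EZH1 count in the 3 libraries with the CIP label, and 6.10, 6.27 and 7.71 in the DMSO-labelled ones. The log2 ratio was 3.51 ± 0.21 (SD, n = 3) with the CIP label and 2.73 ± 0.18 with the DMSO label, without overlap, and the difference was 0.78 ± 0.16 (SE). The exact permutation test over libraries gave p = 0.10, 2-sided, the smallest that 3 against 3 allows. EZH2 made up 91.9% ± 1.07 of the counts of this pair with the CIP label and 86.9% ± 1.41 with the DMSO label.

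Among the PRC1 genes the outcome differed from gene to gene. RING1 (chromosome 6, 33208500 to 33212716), one ligase of the complex, stood at 54.5, 54.2 and 55.0 CPM with the CIP label and at 35.3, 37.6 and 33.7 CPM with the DMSO label. It rose by a log2 fold change of 0.62 ± 0.10 (standard error, with edgeR adjusted p = 2.23e-06), and the groups did not overlap. RNF2 (chromosome 1, 185045558 to 185102603), its paralog and the main ligase in many cell types, stood at 14.2, 13.2 and 12.9 CPM against 15.0, 10.1 and 14.4 CPM. DMSO replicate 2 was the lowest of all 6 libraries and replicate 1 the highest, so the groups overlapped. The log2 fold change of RNF2 was 0.04 with a 95% interval of -0.34 to 0.41 (edgeR adjusted p = 0.87).

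The ratio of RNF2 to RING1 counts was 0.261, 0.244 and 0.235 under the CIP label and 0.424, 0.268 and 0.426 under the DMSO label. The groups did not overlap, but DMSO replicate 2 lay close to the CIP-labelled libraries. The difference in the log2 ratio was -0.56 ± 0.23 (SE, exact permutation p = 0.10, 2-sided, the smallest possible), and without DMSO replicate 2 it was -0.79.

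BMI1 (chromosome 10, 22321099 to 22331706), a PCGF protein of PRC1 that sustains self-renewal of blood stem cells and represses CDKN2A, was the lowest of the 10 genes in both groups. It had 13, 24 and 21 counts in the DMSO-labelled libraries, or 1.99 ± 0.608 CPM (n = 3), and 0 counts in each of the CIP-labelled ones. A count of 0 over the CIP-labelled libraries allows up to 3 counts, or 0.106 CPM, so BMI1 was at least 18.6-fold lower there (edgeR adjusted p = 1.26e-06). These limits cover counting error only. BMI1 passed the low-count filter through the DMSO-labelled libraries alone and could not be called higher.

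The count of BMI1 may be incomplete. The readthrough gene COMMD3-BMI1 covers most of it in RefSeq, BMI1 runs 222 bases past the end of that gene, and no source used here says how reads that fall in both were treated. COMMD3-BMI1 was listed with 0 counts in all 6 libraries. COMMD3, the upstream partner of that readthrough, which takes part in the sorting of membrane proteins, has its own 3' end and does not overlap BMI1. It stood at 31.2, 28.6 and 30.4 CPM with the CIP label and at 220.4, 217.5 and 202.0 CPM with the DMSO label, and its log2 fold change was -2.83 ± 0.08 (standard error, with edgeR adjusted p = 1.10e-25).

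The genes around BMI1 were read after its values and those of COMMD3 had been seen. Within 1 Mb of its start 30 genes are listed, 15 with any count and 10 tested. Of the 10 tested 9 fell and 1 rose, beside 38.2% of all tested genes that fell. The 9 include BMI1 and COMMD3, whose falls prompted the reading. BMI1, SPAG6, LOC124902392, LOC105376447 and LOC100130992 had 0 to 11 counts each over the CIP-labelled libraries. They passed the low-count filter through the DMSO-labelled libraries alone and could not be called higher. The count of 9 is therefore no test of the region. SPAG6, a protein of the sperm flagellum, had 0 counts with the CIP label and 2.87 ± 0.348 CPM with the DMSO label, at least 27.3-fold lower. LOC124902392, listed by RefSeq as protein-coding, went from 46.9 ± 2.66 CPM to 0 counts, at least 441-fold lower. DNAJC1, a chaperone of the endoplasmic reticulum, fell from 122.7 ± 4.95 to 32.1 ± 2.51 CPM, and MSRB2, a methionine sulfoxide reductase, fell from 48.9 ± 1.59 to 12.6 ± 2.49 CPM. PIP4K2A, a lipid kinase, fell less, from 40.7 ± 2.22 to 28.2 ± 0.808 CPM. MLLT10, a cofactor of the DOT1L methyltransferase, rose from 17.9 ± 2.56 to 40.9 ± 5.39 CPM. Genes called lower thus lie on both sides of BMI1, by differing amounts, and MLLT10 was called higher. Whether the region changed as a unit was not tested.

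**Figure D2:**
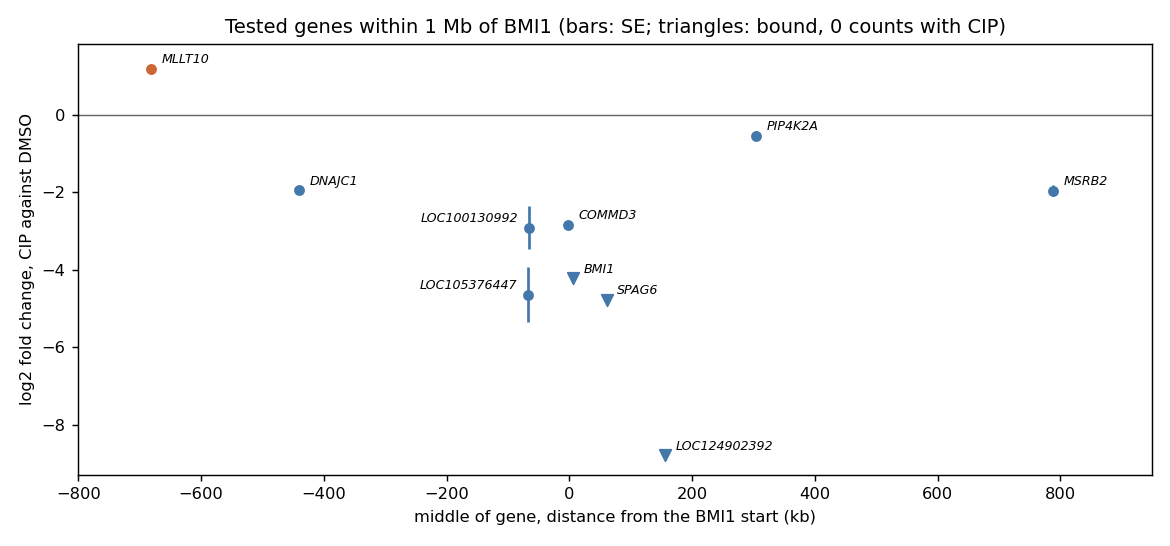
Log2 fold change, CIP against DMSO, of the 10 tested genes within 1 Mb of the BMI1 start, against the distance in kb from that start to the middle of each gene; bars are SE, and triangles are bounds for genes with 0 counts with the CIP label. All but MLLT10 lie below 0, with BMI1, SPAG6 and LOC124902392 at their bounds.

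ASXL1 and ASXL2 fell. ASXL2 (chromosome 2, 25733753 to 25878487), a cofactor of BAP1 in haematopoiesis, stood at 44.1, 49.5 and 42.2 CPM with the CIP label and at 66.1, 65.6 and 65.1 CPM with the DMSO label. The groups were well apart, with a log2 fold change of -0.54 ± 0.10 (standard error, with edgeR adjusted p = 7.06e-06). ASXL1 (chromosome 20, 32358331 to 32439319), mutated in many myeloid neoplasms, stood at 92.4, 103.9 and 104.1 CPM against 108.9, 128.1 and 114.8 CPM. Its groups came within a few CPM of each other, the log2 fold change was -0.23 ± 0.08 (standard error, with edgeR adjusted p = 0.0111), and the call was lost without CIP replicate 1 (adjusted p = 0.11) or DMSO replicate 2 (adjusted p = 0.088).

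ASXL1 gave 2.10, 2.10 and 2.47 counts for each count of ASXL2 under the CIP label, against 1.65, 1.95 and 1.76 under the DMSO label. The difference in the log2 ratio was 0.31 ± 0.11 (SE, exact permutation p = 0.10, 2-sided, the smallest possible), with no overlap. ASXL3, the third family member, had 0 counts in every library.

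**Figure D3:**
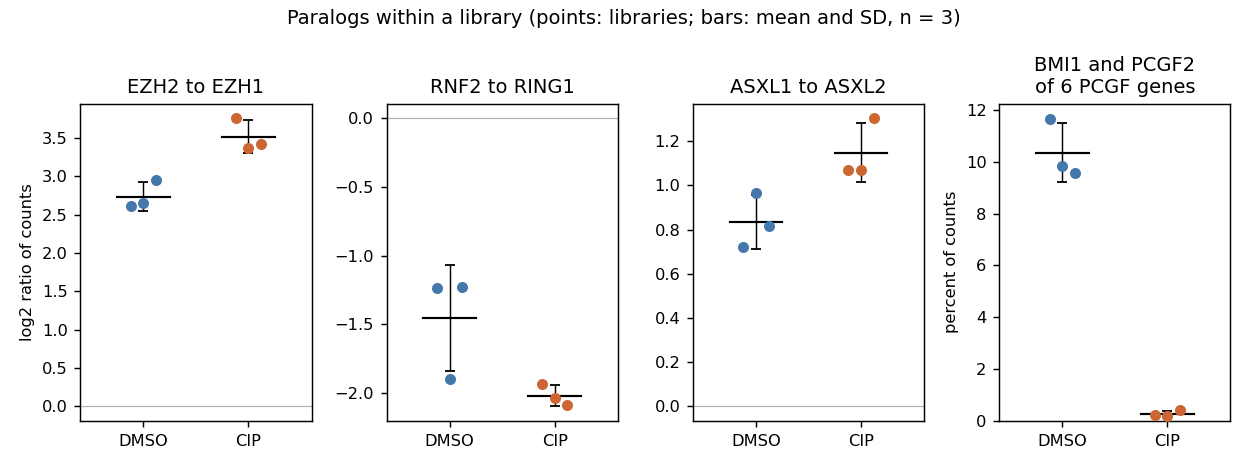
Log2 ratio of counts for EZH2 to EZH1, RNF2 to RING1 and ASXL1 to ASXL2 in each library, and the percent of PCGF counts from BMI1 and PCGF2; points are libraries, bars the mean and SD of 3. The groups are apart in each panel, with DMSO replicate 2 near the CIP-labelled libraries for RNF2 to RING1.

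The order of the levels differed between the labels in the middle of the list. Reads from 3' ends do not grow with transcript length, so CPM was compared between genes without division by length. JARID2 was highest and SUZ12 next, at 256.6 ± 18.8 and 204.0 ± 12.8 CPM (n = 3) with the CIP label, and EZH1, RNF2 and BMI1 were the lowest 3 under both labels. BMI1 may be undercounted and SUZ12P1 may bear on the SUZ12 count, so their places carry the limits given above. ASXL2 lay above EED and RING1 with the DMSO label and below both with the CIP label, with no overlap in either case. EZH2 was above ASXL1 with the CIP label, at 182.8 ± 3.58 against 100.1 ± 6.71 CPM. With the DMSO label SUZ12 overlapped ASXL1, and ASXL1 at 117.3 ± 9.82 CPM overlapped EZH2 at 109.8 ± 0.219 CPM. EZH1 and RNF2 overlapped under both labels, and no other neighbours in the order did.

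Over the 6 libraries the 3 genes nearest in pattern to BMI1, the member with the largest change, were JHY, KLKB1 and LOC105379384. Their centred log2 CPM (prior count 2) differed from that of BMI1 by a mean of 0.04, 0.07 and 0.08 per library. Each had 0 counts with the CIP label and 1.97 to 2.22 CPM with the DMSO label, so the likeness rests on that contrast.

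Other subunits of the same complexes were read from lists. Of 10 further PRC2 genes 9 were tested, and 3 rose, 3 fell and 3 did not pass, with a median log2 fold change of -0.09, and with library totals alone 3 rose and 4 fell. RBBP7 and RBBP4, histone chaperones that PRC2 shares with other complexes, fell, RBBP7 from 260.0 ± 12.05 to 152.3 ± 3.64 CPM and RBBP4 from 189.8 ± 11.8 to 138.9 ± 8.39 CPM. Accessory subunits were split. PHF19 and MTF2, Polycomb-like proteins that recruit PRC2 to CpG-rich DNA, rose, PHF19 from 59.6 ± 2.79 to 108.8 ± 6.83 CPM and MTF2 from 84.7 ± 5.58 to 129.1 ± 4.16 CPM. AEBP2, which defines the same form of PRC2 as JARID2, rose from 6.59 ± 0.288 to 18.0 ± 0.737 CPM, and its log2 fold change was 1.45 ± 0.19 (standard error, with edgeR adjusted p = 4.60e-08). EPOP, a further accessory subunit, fell from 37.9 ± 4.57 to 13.9 ± 2.11 CPM, and its log2 fold change was -1.45 ± 0.14 (standard error, with edgeR adjusted p = 6.86e-11).

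Of 25 further PRC1 genes, all tested, 8 rose, 6 fell and 11 did not pass, with a median log2 fold change of 0.03, and with library totals alone 6 rose and 11 fell. The widest changes were at PCGF2 and CBX7, which belong to the canonical form of PRC1 that binds the PRC2 mark, and at MGA and AUTS2, which belong to variant forms. PCGF2, the closest paralog of BMI1, had 1, 1 and 2 counts with the CIP label and 80, 59 and 50 with the DMSO label, and its log2 fold change was -5.38 ± 0.55 (standard error, with edgeR adjusted p = 1.08e-10). CBX7, a reader of the methyl mark, fell from 26.8 ± 2.22 to 1.11 ± 0.436 CPM, and its log2 fold change was -4.60 ± 0.25 (standard error, with edgeR adjusted p = 1.25e-17). MGA, a partner of MAX and the scaffold of a variant PRC1, rose from 2.50 ± 1.16 to 80.1 ± 7.34 CPM, and its log2 fold change was 4.97 ± 0.17 (standard error, with edgeR adjusted p = 6.11e-23). AUTS2 rose from 0.273 ± 0.300 to 6.72 ± 2.01 CPM. PCGF2 passed the low-count filter through the DMSO-labelled libraries alone and could not be called higher. AUTS2 passed it through the CIP-labelled libraries alone and could not be called lower.

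A share within the PCGF family, chosen after these values were seen, puts BMI1 beside its paralogs. BMI1 and PCGF2 together gave 0.228%, 0.201% and 0.405% of the counts of the 6 PCGF genes under the CIP label, against 11.7%, 9.82% and 9.58% under the DMSO label. PCGF2 gave most of these counts, 189 over the DMSO-labelled libraries against 58 of BMI1. The count of BMI1 may be incomplete, as said above. The remaining PCGF genes belong to variant PRC1. Of these PCGF3 fell from 46.8 ± 4.08 to 26.2 ± 2.17 CPM, and PCGF1, PCGF5 and PCGF6 did not pass, although PCGF5 was called lower with library totals alone (adjusted p = 0.021) or without CIP replicate 1 (0.048).

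**Figure D4:**
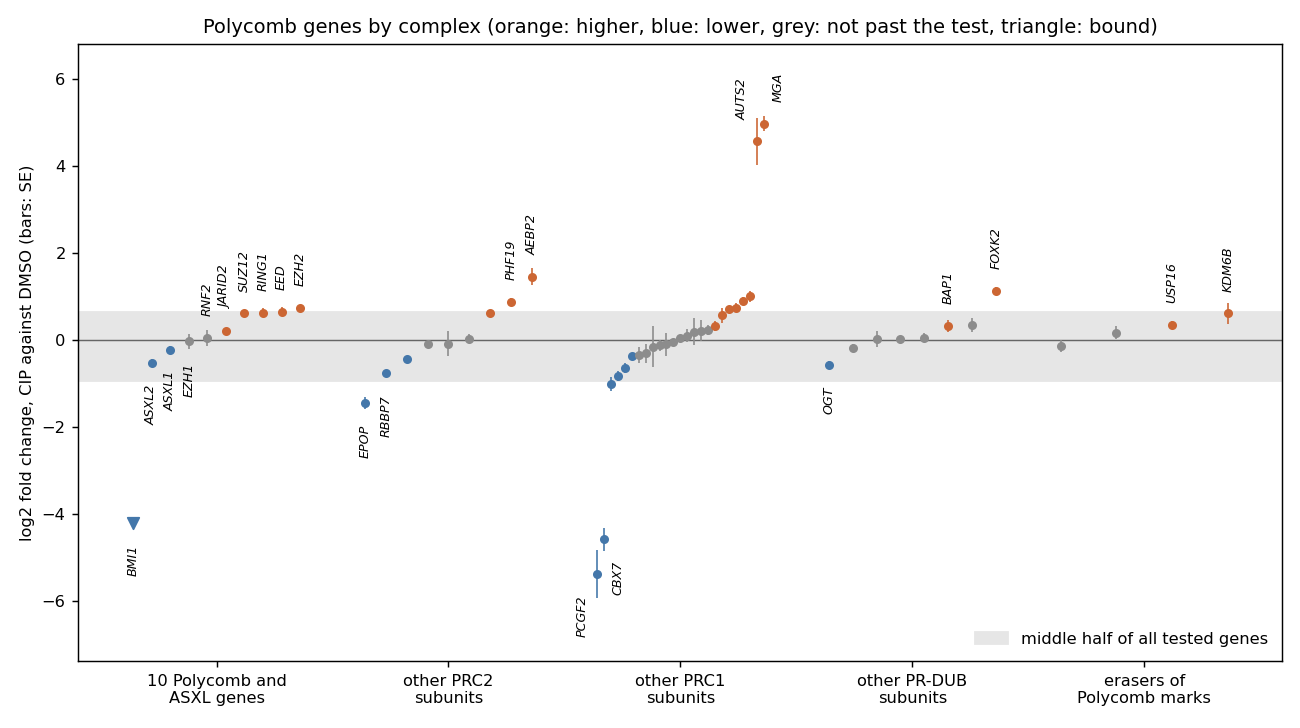
Log2 fold change, CIP against DMSO, of each tested gene of the 10 and of the 4 further lists, sorted within each list; bars are SE, the triangle is the bound for BMI1, and the grey band runs from the lower to the upper quartile of all tested genes. BMI1 at its bound, PCGF2, CBX7, MGA and AUTS2 lie beyond 4 units, and most others lie inside the band.

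Of the 8 tested further genes of the BAP1 complex 2 rose, 1 fell and 5 did not pass, and with library totals alone 1 rose and 3 fell. FOXK2, a forkhead factor that brings BAP1 to DNA, rose from 44.6 ± 5.76 to 96.5 ± 12.1 CPM, and OGT, a glycosyltransferase of the complex, fell from 118.5 ± 8.75 to 79.7 ± 4.82 CPM. BAP1 itself stood at 28.3, 30.6 and 24.7 CPM against 23.3, 19.7 and 24.1 CPM. Its log2 fold change of 0.32 ± 0.14 (standard error, with edgeR adjusted p = 0.037) was not called with RLE scaling (adjusted p = 0.052), with library totals (0.57), with DESeq2 (0.079), with the replicate block (0.058) or without CIP replicate 1, CIP replicate 2, DMSO replicate 1 or DMSO replicate 2.

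Of 4 enzymes that take off the Polycomb marks 2 rose and 2 did not pass. KDM6A, a demethylase of lysine 27, did not pass, at 20.2 ± 3.19 against 18.1 ± 0.887 CPM. Its relative KDM6B stood at 9.64 ± 1.92 against 6.33 ± 1.27 CPM (log2 fold change 0.60 ± 0.24 SE, edgeR adjusted p = 0.028). USP16, a deubiquitinase of histone H2A, stood at 91.9 ± 5.10 against 72.6 ± 3.67 CPM (edgeR adjusted p = 4.54e-04), and MYSM1 did not pass. With library totals alone neither KDM6B (adjusted p = 0.17) nor USP16 (0.24) was called and MYSM1 was lower. KDM6B was also not called without CIP replicate 2 (adjusted p = 0.15), DMSO replicate 1 (0.11) or DMSO replicate 3 (0.082).

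Most of the tested genes among those that Polycomb is known to silence fell. Of the 39 HOX genes and the INK4 genes CDKN2A and CDKN2B, 16 were tested, and 13 fell, 2 rose and 1 did not pass. Of all tested genes 38.2% fell and 34.9% rose. The median log2 fold change of the 16 was -4.03, or -3.97 with genes at 0 set to their bounds, beside -0.03 for all tested genes. All 6 tested HOXC genes fell. Each had 0 to 5 counts over the CIP-labelled libraries and passed the low-count filter through the DMSO-labelled ones alone. Once tested, these 6 could not be called higher. HOXA3 and CDKN2B, which also fell, passed that filter through the DMSO-labelled libraries as well. The 13 and the median rest in part on these genes and are no test of these loci. HOXC4 had 314, 300 and 289 counts with the DMSO label and 1 count over the CIP-labelled libraries, 871 times lower (exact 95% interval 155.9 to 34443), and HOXC6 had 3 counts over the CIP-labelled libraries, 306 times lower (exact 95% interval 104.5 to 1489). HOXC8 had 1 count there and HOXC9 had 0, which is at least 51.8-fold lower. These intervals and bounds cover counting error only, since reads are not known to be independent molecules.

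The HOXA cluster was mixed. HOXA13 fell from 118.3 ± 10.04 to 10.1 ± 2.34 CPM and HOXA11 from 57.1 ± 1.27 to 2.52 ± 0.351 CPM, while HOXA7 rose from 4.33 ± 1.46 to 13.5 ± 0.567 CPM. HOXA4, at 2.73 ± 1.17 against 1.31 ± 0.388 CPM, passed (edgeR adjusted p = 0.041) with groups that overlapped, and did not with library totals, without the low-count filter, with DESeq2, with limma-voom, with the replicate block or with any of 5 single libraries left out. HOXA10 fell from 225.3 ± 5.53 to 4.26 ± 0.420 CPM. No HOXB or HOXD gene reached the level for testing, with at most 14 counts in a library. Those 14 were of HOXD13, which was not tested and went the other way, with 14, 1 and 10 counts under the CIP label and 0 in each DMSO-labelled library, at least 8.64-fold higher. CDKN2A, the inhibitor locus that BMI1 is known to repress, stood at 25.7, 29.9 and 29.7 CPM with the CIP label and at 101.8, 102.2 and 129.9 CPM with the DMSO label. BMI1 had counts only with the DMSO label, and a link between the levels of these genes was not tested. CDKN2B fell from 2.56 ± 0.559 to 0.559 ± 0.593 CPM.

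**Figure D5:**
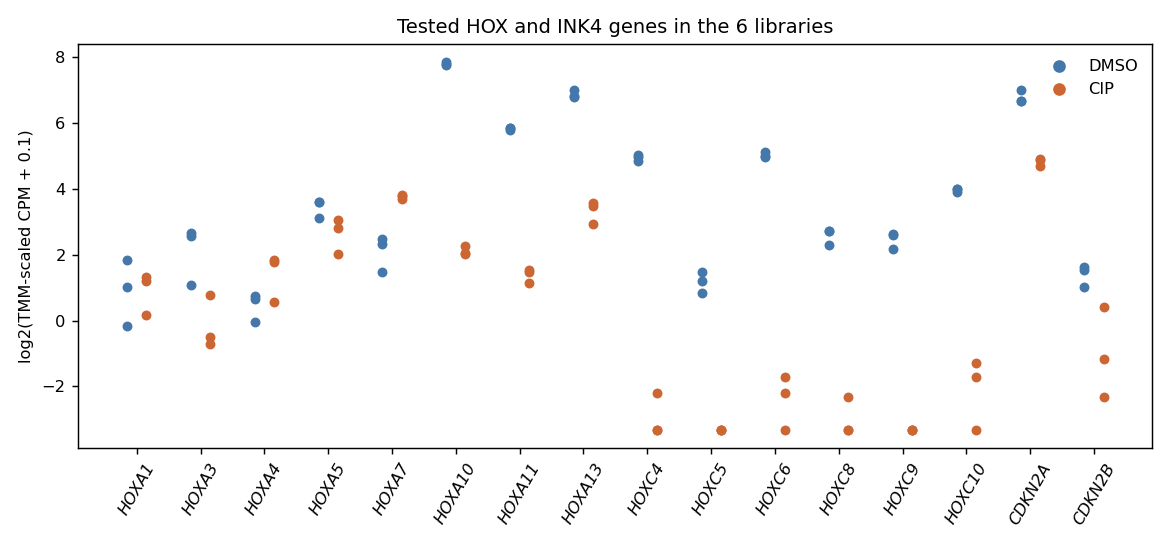
Level of the 16 tested HOX and INK4 genes in each library, as log2 of TMM-scaled CPM with 0.1 added; points are libraries, 3 for each label. The HOXC genes, HOXA10, HOXA11, HOXA13 and CDKN2A lie lower in all CIP-labelled libraries, and HOXA7 lies higher.

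EZH2 and EED are known targets of E2F factors, so 16 E2F and replication genes were read beside them. Of these 6 rose, 6 fell and 4 did not pass, with a median log2 fold change of -0.06, and with library totals alone 5 rose and 9 fell. CCNE1, cyclin E1, rose from 8.42 ± 2.30 to 24.1 ± 2.75 CPM and E2F3 from 60.3 ± 9.29 to 134.6 ± 12.1 CPM. MCM3 and MCM4, subunits of the replicative helicase, fell, MCM3 from 590.5 ± 45.02 to 293.0 ± 17.1 CPM and MCM4 from 283.6 ± 14.1 to 149.5 ± 4.27 CPM. CDC6, which loads that helicase, rose from 32.7 ± 2.05 to 53.8 ± 1.64 CPM, and TYMS, thymidylate synthase, from 178.7 ± 5.26 to 310.1 ± 29.1 CPM. The E2F matches printed above were in the promoters of EZH2 and SUZ12, which rose, and of EZH1, which did not pass. Among the genes without an E2F match EED, RING1 and JARID2 rose, BMI1, ASXL1 and ASXL2 fell and RNF2 did not pass. A link between match and level was not tested.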

How the data were processed

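Each deposited file holds the read counts of 1 library by gene symbol, as whole numbers with unequal totals. Tools in the submitters' processing notes are STAR, HTSeq, fastp and bcl2fastq 2.20.0.422, and the build is GRCh38. Annotation release, strand setting and handling of reads with several matches are not stated in the sources used here. Of the 10 genes 8 overlap another RefSeq gene, and no overlapping row held more than 2 counts in all.

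Genes were tested with edgeR 4.0.16 (R 4.3.3; filterByExpr, TMM, robust quasi-likelihood test, label alone in the design, 2-sided, Benjamini-Hochberg over 12844 genes, called under 0.05). CPM divides counts by TMM-scaled totals of the tested genes, and the SE is the log2 fold change over the square root of F. A library's 3 counts are 0.288 to 0.347 CPM. Ratios were compared by exact permutation.

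Members and lists were chosen with earlier results of these data known. Named genes are the 10, their related rows, fixed checks (MPO, MYC, KDM6A, KDM6B, BAP1, CDKN2A) and up to 4 called genes of each list at 5 CPM or more with the largest changes. Further list genes in the text, and the neighbours of BMI1, were chosen after their values were seen. Values of 1 further list gene are not reported here.

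Tested on counts simulated around the DMSO-labelled mean (12784 genes), the steps called 42 of 67 genes given a 1.5-fold change, 57 of 67 given 2-fold and 66 of 66 given 4-fold, and made 6 false calls. No other gene was changed there, whereas 73.1% of tested genes were called in the data. These rates therefore do not cover a contrast this wide or the scaling of libraries in it. Alternatives were RLE scaling, library totals, 2 other filters, DESeq2 1.42.0, limma-voom (limma 3.58.1), non-robust dispersion, a replicate block, summed rows and each library left out. Chi-square per gene between libraries of 1 group was 3.82 to 7.66, above sampling noise, so none was counted as a duplicate.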

Additional observations from a re-analysis of the deposited data

How the results depend on the processing

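With library totals alone the middle log2 fold change over tested genes (the median) moved from -0.03 to -0.26, and 63.2% of calls were lower in place of 52.3%. JARID2 then had a log2 fold change of -0.034 (edgeR adjusted p = 0.65), EED, RING1, SUZ12 and ASXL1 had 0.42, 0.39, 0.38 and -0.46, and 1 eraser gene was called in place of 2. The split of the lists moved too, from 8 higher and 6 lower to 6 and 11 for further PRC1 genes, from 2 and 1 to 1 and 3 for genes of the BAP1 complex, and from 6 and 6 to 5 and 9 for E2F and replication genes. Between 1 and 2 eraser genes were called with a library left out. ASXL1 ranged from -0.29 to -0.16 with a library left out and was not called without CIP replicate 1 or DMSO replicate 2. Genes of other cell types called numbered 2, and 5 without robust dispersion, 4 with limma-voom, 4 with the replicate block and 2 to 5 with a library left out. Apart from these, the calls of the 10 genes, the total called in each list and the ratio directions were the same or within 1.5 times under the alternatives run. Samples that share a replicate number did not deviate together (correlation -0.02, -0.03 and -0.01 across genes), so the numbers were not taken as pairs. With the replicate block 8 of the 10 genes and 9061 of all genes were called, in place of 8 and 9394, and the log2 ratio differences were 0.78, -0.56 and 0.31 (exact paired permutation p = 0.25, the smallest possible). Without BMI1 and SUZ12 the number called was 6 of 8, which was chosen after seeing the data.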
